A study of Homo sapiens with 6 samples.

Results

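The proteasome genes were the 48 symbols of the PSMA, PSMB, PSMC, PSMD, PSME, PSMF and PSMG series, out of 56637 symbols in the count tables, pseudogenes left out. They were taken by name alone. RNA had been sequenced from MM.1S, an established line of human multiple myeloma cells. In both arms the cells carried a lentiviral short hairpin RNA (shRNA) and had been selected with puromycin. In the shLuc arm, the control, the hairpin was directed against luciferase, and in the shKDM6B arm against KDM6B, a demethylase of lysine 27 of histone H3. Each arm had 3 libraries. Nothing says that they came from separate cultures, so p-values reflect variation among them that may be technical alone. A single hairpin label stands for the knockdown, so effects of KDM6B loss and other effects of the hairpin cannot be told apart.

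The proteasome is the protease that destroys ubiquitin-tagged proteins. Its core particle is a stack of rings: alpha subunits (PSMA genes) form the gated outer rings, and beta subunits (PSMB genes) form the inner rings, where PSMB5, PSMB6 and PSMB7 carry the active sites. Interferon-inducible PSMB8, PSMB9 and PSMB10 can take the place of these 3 and give the immunoproteasome, which favours peptides fit for class I presentation. The regulatory particle, or 19S cap, binds, unfolds and feeds in substrates, with PSMC ATPases and PSMD non-ATPase subunits. Myeloma cells make large amounts of antibody protein and are known to depend on this machine, and bortezomib and carfilzomib, drugs used in myeloma, bind mainly PSMB5.

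Library totals ran from 7338393 to 8996159 counts in shLuc and from 7952156 to 9848351 in shKDM6B. KDM6B itself had 409, 505 and 437 counts in shLuc and 239, 270 and 348 in shKDM6B (log2 fold change -0.71 with an SE of 0.073, adjusted p = 7.72e-08). All 9 plasma cell markers were expressed, SDC1 at 511 CPM (TMM-scaled counts, relative to library size) in shLuc. Of the 9, 1 was higher (PRDM1) and 2 were lower (CD38 at -0.45 and TNFRSF17 at -0.37 on the log2 scale). Over all genes tested, 20.1% were higher and 18.9% lower at an adjusted p of 0.05. Mature B cell markers were mixed: CD22 stood at 0 counts in every library, whereas CR2 was at 95.6 CPM and BACH2 at 92.9 CPM in shLuc, and BACH2 fell to 62.4 CPM in shKDM6B (adjusted p = 2.65e-08). Keratins were uneven: the 9 epithelial markers, which are keratins and EPCAM, summed to 2.60 to 11.4 CPM in shLuc and 2.02 to 43.9 CPM in shKDM6B, highest in shLuc replicate 1 and shKDM6B replicates 1 and 2. EPCAM, not a keratin, made up 1.36 CPM of the lowest shLuc sum and 1.31 CPM of the lowest shKDM6B sum. It had 11, 12 and 20 counts in shLuc and 7, 5 and 13 in shKDM6B. The T cell markers summed to 7.96 to 10.2 CPM in shLuc and 5.14 to 6.46 CPM in shKDM6B, the erythroid ones to 19.5 to 23.7 and 10.5 to 13.2 CPM, and monocyte and fibroblast ones to at most 3.47 CPM in any library. Most of the T cell sum was CD3E, which was lower (7.60 to 5.05 CPM, adjusted p = 0.00727), and CD3D and CD3G had at most 1 count per library. Nearly all of the erythroid sum was HBB, also lower (20.8 to 11.9 CPM, adjusted p = 5.75e-06). HBA1, HBA2 and ALAS2 had at most 2 counts per library. The part of these markers in the results was not tested. Fold changes without the 3 libraries with most keratin are also given, a fit that leaves only replicate 3 in the shKDM6B arm.

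Most proteasome genes differed little between the arms, and a few stood out. PSMB5, the main drug-bound catalytic subunit, and PSMB2, a non-catalytic beta subunit, fell to 70.5% and 72.4% of the control level. PSMD7, a subunit of the lid of the regulatory particle, fell to 81.4%, while PSMC4 and PSMD3 fell by less. PSMD5, a chaperone that helps to build the regulatory particle, rose to 116% of control. The immune subunits PSMB8, PSMB9 and PSMB10 did not pass the threshold.

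Of the 48 genes, 46 had enough counts to be tested, and 6 passed an adjusted p of 0.05, 1 higher and 5 lower. That is 13.0% of those tested, against 39.1% of all 13839 genes tested (20.1% higher and 18.9% lower). The median log2 fold change of the 46 was -0.024, beside -0.0053 over all genes. Below 0 lay 29 of the 46, against 7059 of all 13839, a smaller share. Groups did not overlap for 10 of the 46 (21.7%), against 48.4% of all genes. For 38 of the 46 (82.6%) the 95% interval of the fold change lay within 1.2-fold in either direction, against 36.9% of all genes. That share rises with read density, as given with the density values. Without the 3 keratin-bearing libraries, only replicate 3 was left in the shKDM6B arm, so the calls of that fit are not listed. Its median log2 fold change was -0.057 for the members and -0.0089 for all genes. With scaling on sparsely covered genes (those under 0.03 counts per base of exon), 2 members were higher and 3 lower. The median of the members then turned to 0.034, while that of all genes moved to 0.053.

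**Figure D1:**
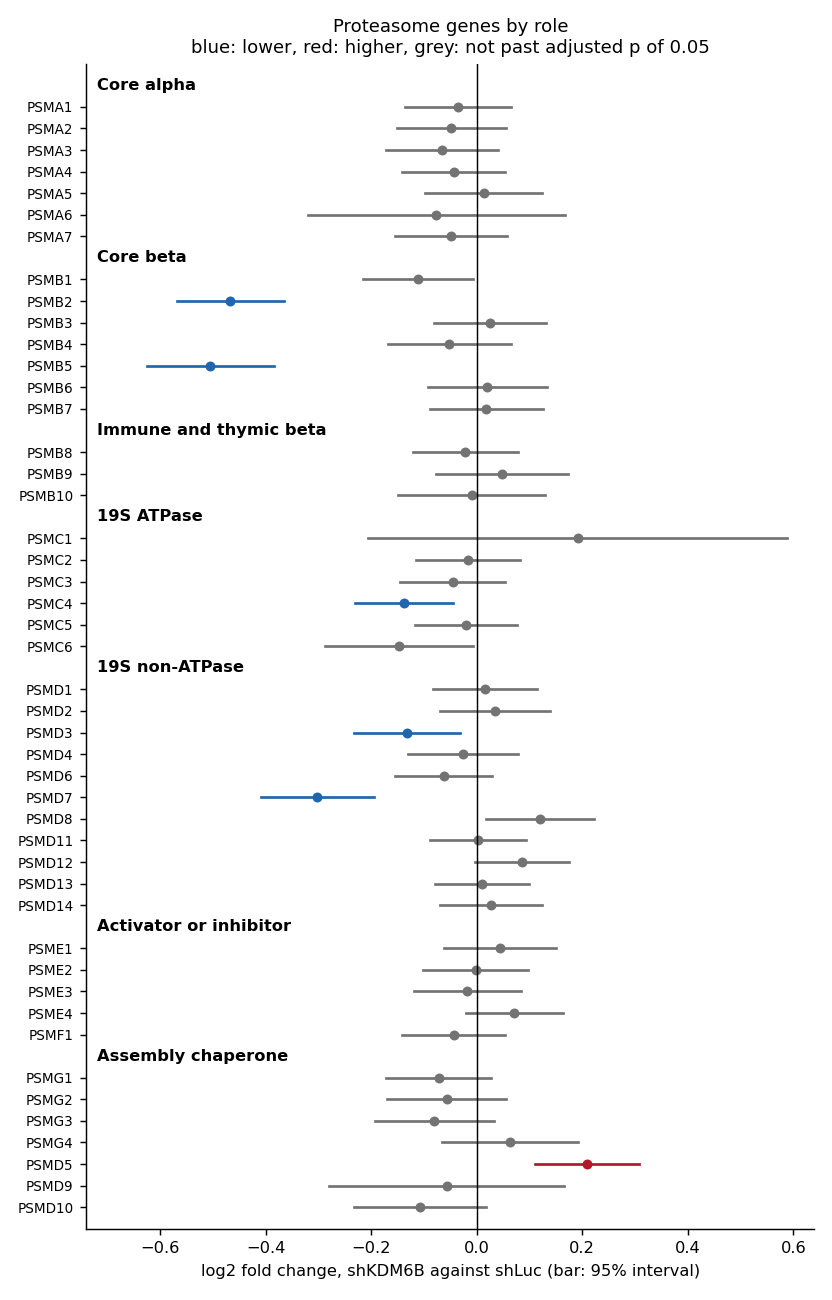
Log2 fold change of each tested proteasome gene, shKDM6B against shLuc, with its 95% interval as a bar, grouped by role (n = 3 libraries per arm). PSMB5, PSMB2 and PSMD7 lie farthest to the left, PSMD5 is the red point to the right, and most other intervals cross 0.

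**Figure D2:**
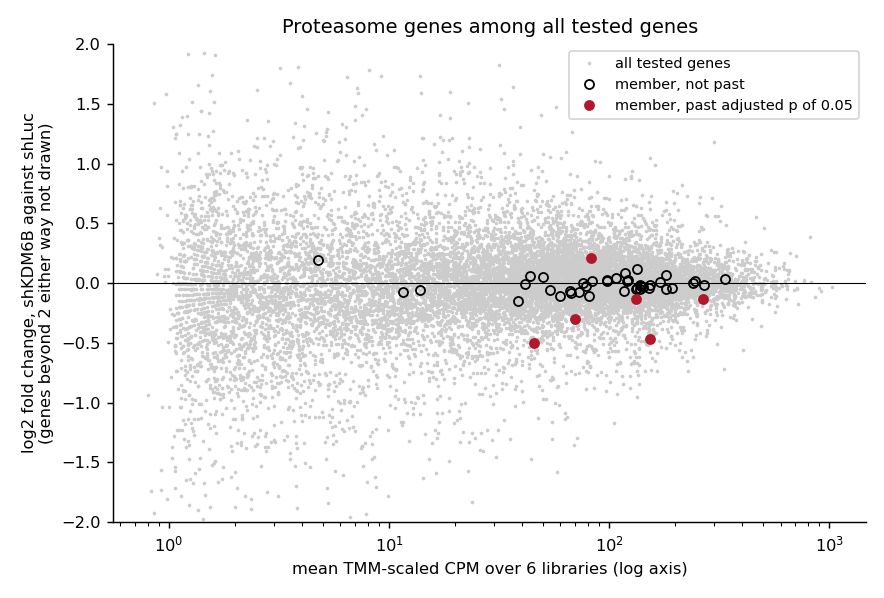
Log2 fold change against mean CPM (log axis) for all 13839 tested genes in grey and the 46 tested proteasome genes as circles, filled where past the threshold. 55 genes beyond a log2 fold change of 2 either way are not drawn. The proteasome genes sit among the more abundant genes and mostly close to 0.

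These genes were dense in reads. Among tested genes with a known exon length, split into 4 equal bins by counts per base of exon, 29 of the 46 proteasome genes fell in the densest bin, where 37.7% of all genes passed, and 5 of those 29 did. The share of all genes with an interval within 1.2-fold was 3.18%, 30.9%, 54.6% and 72.3% from the sparsest to the densest bin, and 41 of the 46 proteasome genes lay in the last 2 bins, so their 82.6% is to be read against the upper 2 values. From the shallowest to the deepest shLuc library the total rose by 22.6% and the summed proteasome counts by 17.3%. In shKDM6B the rises were 23.8% and 17.1%. CPM was lower in the deepest than in the shallowest library for 36 of the 46 genes in shLuc and 39 in shKDM6B, beside 47.7% and 46.8% of all genes. The part of this in the size of the fold changes was not tested.

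The promoters of the 4 genes that passed under every alternative analysis are shown so that the members that fell and the one that rose can be compared. They are RefSeq sequences of GRCh38.p14, the 250 bases before the listed start (of several, the start nearest to that of the GENCODE transcript), written 5′ to 3′ on the gene's strand, and 42 of the 48 genes had such an entry. Capitals mark a match to 1 of 5 motifs searched on both strands: TGACNNNGC, the core of the antioxidant response element through which NFE2L1 and NFE2L2 act; CCGGAAGT, an ETS motif; CCAAT; TTCNNNGAA, the GAS motif of interferon-gamma responses; and GAAANNGAA, the core of the interferon-stimulated response element. No match overlapped another in these 4 sequences.
PSMB5, chr14:23035221-23035470, minus strand: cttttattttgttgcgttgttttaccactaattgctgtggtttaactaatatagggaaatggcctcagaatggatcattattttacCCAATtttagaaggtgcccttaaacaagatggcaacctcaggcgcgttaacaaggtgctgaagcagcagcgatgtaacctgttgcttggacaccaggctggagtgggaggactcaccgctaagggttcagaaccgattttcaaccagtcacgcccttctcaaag
PSMB2, chr1:35641527-35641776, minus strand: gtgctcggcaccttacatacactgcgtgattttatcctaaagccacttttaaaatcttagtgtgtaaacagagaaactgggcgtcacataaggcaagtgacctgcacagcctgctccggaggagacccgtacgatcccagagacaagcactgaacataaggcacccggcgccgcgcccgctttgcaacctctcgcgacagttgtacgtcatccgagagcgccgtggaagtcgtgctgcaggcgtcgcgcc
PSMD7, chr16:74296564-74296813, plus strand: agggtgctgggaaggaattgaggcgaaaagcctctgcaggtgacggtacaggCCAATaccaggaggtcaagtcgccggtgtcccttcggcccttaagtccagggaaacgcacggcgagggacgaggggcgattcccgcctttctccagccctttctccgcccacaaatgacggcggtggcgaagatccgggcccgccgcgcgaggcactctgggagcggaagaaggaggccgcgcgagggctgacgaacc
PSMD5, chr9:120842923-120843172, minus strand: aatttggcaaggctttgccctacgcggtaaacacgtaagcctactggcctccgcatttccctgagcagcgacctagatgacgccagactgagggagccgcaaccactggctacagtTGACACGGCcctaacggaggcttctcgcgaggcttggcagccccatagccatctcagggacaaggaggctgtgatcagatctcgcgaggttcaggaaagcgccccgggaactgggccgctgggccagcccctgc
PSMB5 and PSMD7 each held a single CCAAT, found in 32.0% of 35116 promoter windows of this length and in 18 of the 42 proteasome windows. PSMB2, which fell to 72.4% of control, held none of the 5 motifs in this window. Its RefSeq start lies 318 bases from the start of its GENCODE transcript, farther than the window is long, against 39 to 75 bases for the other 3 genes. PSMD5 held an antioxidant response element core, found in 10.9% of all windows and 10 of the 42 here, among them PSMD3, which fell. ETS matches were in 6 of the 42 (3.42% of all windows), GAS in 6 (6.57%) and the interferon core in 5 (6.88%). GAS matches were in PSMA2, PSMA8, PSMB8, PSMC4, PSMD3 and PSME3, and interferon core matches in PSMA4, PSMB4, PSMB10, PSME2 and PSMG4. PSMB9 and PSME1, also interferon-inducible, held neither. A match is a description of letters and not a measured site.

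In the beta rings, 2 of the 7 constitutive subunits fell and 5 did not pass. That is 28.6% called, where 39.1% of all genes were called and 18.9% were lower. PSMB5 had 400, 470 and 477 counts in shLuc and 302, 317 and 365 in shKDM6B. Scaled, these were 54.9, 53.1 and 52.6 CPM against 38.4, 37.9 and 36.8 CPM. Every shKDM6B library was below every shLuc library, in raw counts as in CPM. The mean went from 53.5 ± 1.2 to 37.7 ± 0.8 CPM (SD, n = 3 libraries; log2 fold change -0.50 with an SE of 0.058, adjusted p = 3.89e-07). Over the 16 alternative analyses, its log2 fold change ran from -0.52 to -0.45, always past the threshold in use.

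PSMB2 sits beside the active subunits without cutting itself. Its level was 184.8, 178.1 and 171.5 CPM in shLuc and 130.2, 136.5 and 120.2 CPM in shKDM6B. The arms were again fully apart, with means of 178.1 ± 6.7 and 129.0 ± 8.2 CPM (SD, n = 3 libraries; log2 fold change -0.47 with an SE of 0.049, adjusted p = 8.73e-08). Across the alternatives the log2 fold change ran from -0.54 to -0.41, past the threshold in each.

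The other catalytic subunits of the constitutive core, PSMB6 and PSMB7, had log2 fold changes of 0.020 (95% interval -0.093 to 0.13) and 0.018 (-0.088 to 0.13). PSMB6 stood at 104.4, 96.1 and 90.7 CPM in shLuc and 104.6, 97.5 and 92.9 CPM in shKDM6B, with the arms interleaved. The structural subunits PSMB3 (0.025) and PSMB4 (-0.052) also missed the threshold. PSMB1, a further structural subunit, was at 84.3 ± 3.1 and 78.1 ± 3.9 CPM (SD, n = 3 libraries), with no overlap between the arms, and its log2 fold change of -0.11 had an adjusted p of 0.0867. With upper-quartile scaling PSMB1 passed as lower (adjusted p = 0.0479).

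**Figure D3:**
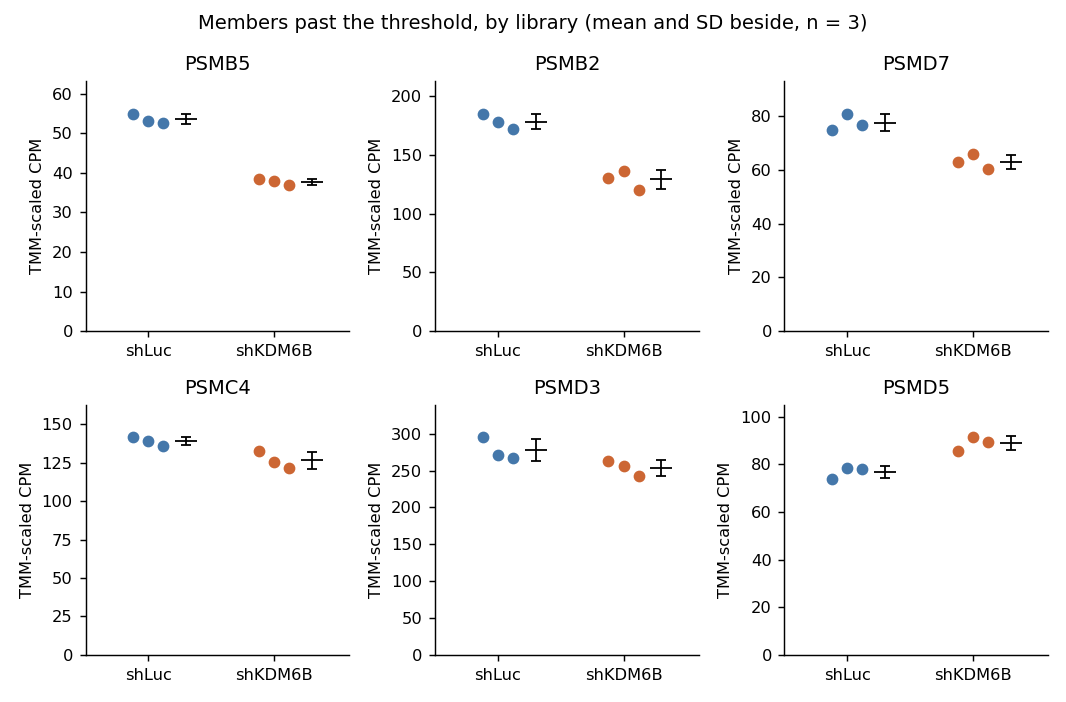
CPM after TMM scaling in each library for the 6 proteasome genes past the threshold, with the mean and SD (n = 3) beside the points and axes from 0. For PSMB5, PSMB2 and PSMD7 the shKDM6B points lie well below the shLuc points, for PSMC4 and PSMD3 just below, and for PSMD5 above.

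None of the 3 tested immune subunits passed. PSMB8, the immune counterpart of PSMB5, was at 79.0, 80.1 and 77.1 CPM in shLuc and 80.7, 77.3 and 75.0 CPM in shKDM6B. The values overlapped, and the log2 fold change was -0.022 (95% interval -0.12 to 0.077, adjusted p = 0.753). PSMB9, the counterpart of PSMB6, went from 49.4 ± 3.5 to 50.9 ± 1.1 CPM (SD, n = 3 libraries; log2 fold change 0.047, 95% interval -0.078 to 0.17). PSMB10, the counterpart of PSMB7, had a log2 fold change of -0.0097 (-0.15 to 0.13). In GENCODE, 139 exon bases of PSMB8 and PSMB9 overlap on opposite strands, and PSMB8-AS1, not analysed here, overlaps 20.6% of the PSMB8 exons, so without strand reads there cannot be assigned. PSMB11, the thymus form of the beta subunit, had 0 counts in all 6 libraries.

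The ratio of an immune to a constitutive subunit within a library does not depend on how libraries are scaled. PSMB8 to PSMB5 was 1.44, 1.51 and 1.47 in shLuc and 2.10, 2.04 and 2.04 in shKDM6B. The mean ratio rose from 1.47 ± 0.04 to 2.06 ± 0.04 (SD, n = 3 libraries), 1.40-fold, with no overlap between the arms. Per base of transcript, the ratio of the means was 1.69 and 2.37. PSMB9 to PSMB6 was 0.509 ± 0.006 and 0.519 ± 0.026, and PSMB10 to PSMB7 was 0.348 ± 0.008 and 0.342 ± 0.010 (SD, n = 3 libraries), with overlapping arms. Within the PSMB5 pair, PSMB8 CPM overlapped between the arms and PSMB5 CPM did not. These ratios were not tested, as 3 libraries against 3 allow no exact p below 0.10.

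**Figure D4:**
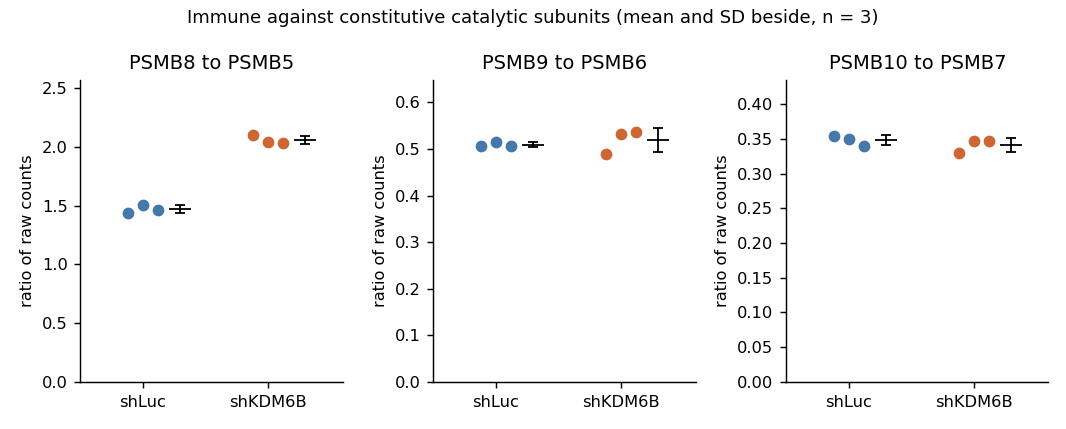
Ratio of raw counts of each immune catalytic subunit to the constitutive subunit whose place it takes, by library, with mean and SD (n = 3) and axes from 0. PSMB8 to PSMB5 is near 1.47 in shLuc and 2.06 in shKDM6B, while the points of the other pairs overlap.

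The alpha rings showed no call. All 7 tested alpha subunits missed the threshold, with log2 fold changes from -0.077 (PSMA6) to 0.013 (PSMA5) and 6 of 7 below 0. PSMA3, which showed the widest gap after PSMA6, was at 67.7 CPM in shLuc and 64.9 CPM in shKDM6B (log2 fold change -0.066, 95% interval -0.17 to 0.040). For 6 of the 7, every one but PSMA6, the interval lay within 1.2-fold. PSMA8, the testis form, had 1, 1 and 2 counts in shLuc and 0 in each shKDM6B library, too few to test.

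PSMA6 and some others were counted at levels far below their partners in the same ring. PSMA6 had 88 to 106 counts per library, whereas the other tested alpha genes had 472 or more. In GENCODE, 24.6% of the 50-base windows of its principal transcript also occur in 3 pseudogenes. PSMC1 had 30 to 60 counts; 28.7% of its windows occur in 13 pseudogenes, and 75.8% of its exon bases overlap exons of NRDE2 on the other strand. PSMC6 shares 24.7% of its windows with pseudogenes, PSMD4 21.9% and PSME2 10.8%. With any other gene, including genes that overlap on the same strand, PSMA6 shares 85.6% of its windows, PSMA2 51.0%, PSMA1 48.4%, PSMB10 38.9% and PSMD9 35.8%. Levels of these 9 genes are uncertain in this annotation, and the share of reads lost in counting was not tested. PSMB5, PSMB2, PSMC4, PSMD3 and PSMD5 had no overlapping gene in GENCODE, and PSMB5, PSMC4, PSMD3 and PSMD5 shared no window with a pseudogene (PSMB2 0.0377%).

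In the regulatory particle, 3 of 17 subunits fell (17.6%, near the 18.9% of all genes called lower). None rose, where 20.1% of all genes were higher. PSMD7, partner of the deubiquitinating subunit PSMD14, was at 74.7, 80.9 and 76.8 CPM in shLuc and 62.9, 65.7 and 60.5 CPM in shKDM6B. No library of one arm reached the other, and the mean fell from 77.5 ± 3.1 to 63.0 ± 2.6 CPM (SD, n = 3 libraries; log2 fold change -0.30 with an SE of 0.052, adjusted p = 6.70e-05). Exons of PSMD7 overlap an unnamed transcript on the opposite strand over 30.7% of their length, so part of its reads may belong there. PSMD14 itself had a log2 fold change of 0.027 (95% interval -0.069 to 0.12).

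PSMC4, an ATPase of the base, went from 139.0 ± 2.7 to 126.5 ± 5.8 CPM (SD, n = 3 libraries; log2 fold change -0.14 with an SE of 0.045, adjusted p = 0.0183). PSMD3, a lid subunit, went from 278.0 ± 14.9 to 253.6 ± 10.6 CPM (SD, n = 3 libraries; log2 fold change -0.13 with an SE of 0.048, adjusted p = 0.0342). Neither arm overlapped the other for these genes, but the gaps were narrow, 136.2 against 132.9 CPM for PSMC4 and 267.4 against 262.7 CPM for PSMD3. Both calls were lost with scaling on sparsely covered genes (adjusted p = 0.443 and 0.552), by DESeq2 (0.116 and 0.0727), and without shLuc replicate 2 (0.0599 and 0.0649), shKDM6B replicate 2 (0.0714 and 0.0811) or shKDM6B replicate 3 (0.106 and 0.151). PSMD3 lost its call without shLuc replicate 1 as well (0.148).

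The remaining 14 subunits did not pass. PSMD8, a lid subunit, had the highest value among them beside the sparsely counted PSMC1 (0.19, SE 0.19), with 128.3 ± 6.7 CPM in shLuc and 139.4 ± 7.5 CPM in shKDM6B (SD, n = 3 libraries; log2 fold change 0.12, adjusted p = 0.0600). It passed as higher without shLuc replicate 1 (adjusted p = 0.0276), without shKDM6B replicate 3 (0.0123) and with scaling on sparsely covered genes (0.0427). PSMC6, an ATPase, had the lowest (-0.15, 95% interval -0.29 to -0.0064, adjusted p = 0.0913). PSMD12, a lid subunit, was at 114.4 to 115.3 CPM in shLuc and 117.5 to 124.6 CPM in shKDM6B, apart but with an adjusted p of 0.124. The ATPases PSMC2, PSMC3 and PSMC5 had log2 fold changes of -0.016, -0.045 and -0.020. The large scaffold subunits PSMD1 (0.016) and PSMD2 (0.035), the ubiquitin receptor PSMD4 (-0.026) and the lid subunits PSMD6 (-0.063), PSMD11 (0.0023) and PSMD13 (0.011) each had an interval within 1.2-fold.

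The activators open the gate of the core in place of the regulatory particle. None of these 4 or of the inhibitor PSMF1 passed, and all 5 had an interval within 1.2-fold. PSME1 and PSME2, the interferon-inducible activator pair, had log2 fold changes of 0.044 and -0.0020. PSME2 stood at 78.5, 75.9 and 73.5 CPM in shLuc and 77.0, 75.2 and 75.2 CPM in shKDM6B, which overlapped. The nuclear activator PSME3 (-0.018), PSME4 (0.071, adjusted p = 0.219) and PSMF1 (-0.044) completed the group.

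Among the assembly chaperones, 1 of 7 rose and 0 fell (14.3% called, where 39.1% of all genes were called and 20.1% were higher). PSMD5 was at 73.7, 78.5 and 78.0 CPM in shLuc and 85.7, 91.3 and 89.5 CPM in shKDM6B. All shKDM6B libraries were above all shLuc libraries, with means of 76.7 ± 2.6 and 88.8 ± 2.9 CPM (SD, n = 3 libraries; log2 fold change 0.21 with an SE of 0.048, adjusted p = 0.00126). Across the alternatives its log2 fold change ran from 0.18 to 0.27, past the threshold in use in each. PSMD9 (-0.057) and PSMD10 (-0.11, adjusted p = 0.167), which also guide the ATPase ring, did not pass. Nor did the core chaperones PSMG1 (-0.072), PSMG2 (-0.057), PSMG3 (-0.080) and PSMG4 (0.063).

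Genes that work with the proteasome but lie outside its naming series went both ways. Of 28 such partners and regulators tested, 7 rose, 7 fell and 14 did not pass, with a median log2 fold change of -0.031. Of all genes, 39.1% were called, 20.1% higher and 18.9% lower. USP14, a deubiquitinase of the regulatory particle, rose from 148.4 ± 1.2 to 193.9 ± 9.2 CPM (SD, n = 3 libraries; log2 fold change 0.39 with an SE of 0.044, adjusted p = 3.76e-07). The shuttle factors UBQLN2 (0.50) and UBQLN4 (0.22), which carry ubiquitinated proteins to the proteasome, were higher, whereas UBQLN1 (-0.20) was lower. AKIRIN2, which helps to import proteasomes into the nucleus, was lower (-0.26), as was NGLY1 (-0.23), the deglycosylase that NFE2L1 needs to become active. NFE2L2, the antioxidant response factor, was lower (-0.14, adjusted p = 0.0184), and the related NFE2L3 was higher (0.12, adjusted p = 0.0303). UBQLN1, NFE2L2 and NFE2L3 were named after their values were seen and were not followed through the alternatives.

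NFE2L1, the transcription factor known to drive proteasome genes when the proteasome is inhibited, had a log2 fold change of -0.064 (adjusted p = 0.270). POMP, the maturation factor of the core, was lower (-0.18, SE 0.061, adjusted p = 0.0250). This call was lost by DESeq2 (adjusted p = 0.155) and without shLuc replicate 1 (0.163), shKDM6B replicate 1 (0.0558) or shKDM6B replicate 3 (0.102). Scaling on sparsely covered genes ended it too (0.161). Without the keratin-bearing libraries the log2 fold change of POMP was -0.16. The cap subunits outside the series, ADRM1 (0.076) and SHFM1 (-0.064), and the cap deubiquitinase UCHL5 (-0.036) did not pass.

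Of 10 genes for ubiquitin and its activating enzymes, 1 was lower and 9 did not pass, where 39.1% of all genes were called and 18.9% were lower. The lower gene was UBA7, the activating enzyme of the interferon-induced ubiquitin-like protein ISG15, which went from 8.33 ± 0.56 to 4.17 ± 0.42 CPM (SD, n = 3 libraries; log2 fold change -0.98 with an SE of 0.16, adjusted p = 4.86e-05). Of 18 genes for class I peptide processing, the steps that follow the proteasome, 3 rose, 5 fell and 10 did not pass (median -0.051), a share near the 39.1% called among all genes. The peptide trimmers ERAP1 (-0.45, adjusted p = 1.22e-08) and ERAP2 (-0.32), TAPBPL (-0.33) and HLA-E (-0.19) fell. So did IRF9 (-0.89, SE 0.27, adjusted p = 0.0109), an interferon signalling factor named after its value was seen. IRF9 was sparse, with 27, 22 and 30 counts in shLuc and 14, 10 and 20 in shKDM6B. It was not followed through the alternatives. HLA-E did not pass with scaling on sparsely covered genes (adjusted p = 0.239).

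TAP2 (0.20) and TAP1 (0.13), the peptide transporter, and IRF1 (0.19), a transcription factor of the immune subunits, rose, while NLRC5 (0.050), an activator of class I genes, did not pass. The TAP1 call was lost by DESeq2 (adjusted p = 0.0829) and without shLuc replicate 3 (0.172), shKDM6B replicate 1 (0.0670) or shKDM6B replicate 2 (0.0893). Without the keratin-bearing libraries the log2 fold change of TAP1 was 0.11. TAP1 is the head-to-head neighbour of PSMB9, which did not pass. Of 11 tested genes of the protein-stress list, which are known to follow proteasome inhibition, 5 rose, 0 fell and 6 did not pass (median 0.13), where 39.1% of all genes were called, 20.1% higher and 18.9% lower. HMOX1, the haem-degrading enzyme, rose from 14.8 ± 1.3 to 21.8 ± 1.0 CPM (SD, n = 3 libraries; log2 fold change 0.56 with an SE of 0.097, adjusted p = 7.98e-05). GCLM (0.43), DNAJB1 (0.30), HSPB1 (0.20) and HSPH1 (0.11, adjusted p = 0.0383) were higher as well. HSPH1 was named after its value was seen and was not followed through the alternatives. The 6 that did not pass were HSPA1A (-0.051), HSPA1B (-0.024), SQSTM1 (0.030), ATF3 (0.082), BAG3 (0.13) and DDIT3 (0.23). They too were named after their values were seen. HSPB1 lost its call by DESeq2 (adjusted p = 0.0647) and without shLuc replicate 3 (0.0560). Its log2 fold change was 0.15 without the keratin-bearing libraries. In bulk RNA, fewer cells of a kind and less RNA per cell cannot be told apart.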

How the data were processed

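RNA-seq of 6 MM.1S libraries was used, 3 shLuc and 3 shKDM6B. The authors deposited raw counts per gene symbol for each library. Per the submitters' processing notes, the tools were STAR, featureCounts and DESeq, on the build GRCh37 (hg19). Unstated items (not given in the sources used here) were versions, annotation, strand setting and how multi-mapping or duplicate reads were treated. Each deposited count table holds 56637 symbols, and 1 line per library, whose name had become a date, was left out. The authors' table of scaled values was not used.

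Tests on the raw counts used edgeR 4.0.16 (R 4.3.3), with filterByExpr, TMM scaling, glmQLFit and glmQLFTest, the arm being the only term, and Benjamini-Hochberg adjustment over all genes tested. The threshold was an adjusted p of 0.05. SEs and 95% intervals follow from the quasi-likelihood statistic. The code was tested on simulated counts. Alternatives were DESeq2 1.42.0, voom in limma 3.58.1, other scalings and filters, a replicate block and leaving libraries out. Genes named were KDM6B, all members, and from each of 4 pathway lists those chosen by name plus up to 4 past the threshold with the smallest p. Some of the genes chosen by name are not reported here. Members, lists and tests were chosen with earlier results of these data known. Exon lengths and overlaps come from GENCODE release 29 (GRCh38), matched by symbol.

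Within groups, pairs of libraries differed slightly beyond counting noise (chi-square per degree of freedom 1.07 to 1.33 over genes with under 0.03 counts per base, largest p = 0.0017), so no pair was merged as a library deposited more than once. This does not show that the libraries came from separate cultures.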

Additional observations from a re-analysis of the deposited data

How the results depend on the processing

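Over 16 alternatives, 4 to 8 of the proteasome genes passed, against 6 in the main analysis, and PSMB5, PSMB2, PSMD7 and PSMD5 were among them each time. The number lower was 3 with scaling on sparsely covered genes, 3 by DESeq2 and 3 at an adjusted p of 0.01, and ran from 3 to 5 when 1 library was left out. The number higher was 2 with scaling on sparsely covered genes, and ran from 1 to 2 when 1 library was left out; the added gene was PSMD8. By DESeq2, 4 of the proteasome genes passed, beside 25.8% of the 13303 genes that had an adjusted p. The KDM6B change passed in each of the alternatives. These include the fit without the keratin-bearing libraries, in which the shKDM6B arm has replicate 3 alone. The 3 subunit ratios were recomputed only with libraries left out (7 settings) and moved by less than the spread between libraries, the PSMB10 to PSMB7 fold crossing 1 (0.969 to 1.005). With the replicate number as a block, 8 passed, 2 higher and 6 lower, PSMB1 (adjusted p = 0.0470) and PSMD8 (0.00763) being added (44.9% of all genes passed). The numbers are not shown to pair the libraries: deviations from the group means correlated across genes by 0.12, -0.077 and 0.15 in same-numbered libraries, and replicate 2 did not correlate best with its own number. The cause of these shifts was not tested. Depth and density in reads limit the precision of small changes.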

Other observations

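Lines with proteasome-like names outside the set were also read, and were chosen after their values were seen. PSMD5-AS1, listed beside PSMD5, went the other way from it: 626, 777 and 737 counts in shLuc and 528, 597 and 712 in shKDM6B (85.0 ± 3.4 and 70.1 ± 2.6 CPM, SD, n = 3 libraries; log2 fold change -0.27 with an SE of 0.050, adjusted p = 0.000129). Without strand, reads of this transcript and of PSMD5 can be told apart only where their exons do not overlap, and no such overlap was found in GENCODE. PSMC3IP, a recombination factor that shares only its name, had a log2 fold change of -0.094 (adjusted p = 0.270). NRDE2, which overlaps PSMC1, had one of -0.22 (adjusted p = 0.0809). The 30 pseudogene lines of the set reached 7 counts at most, in PSME2P2, and 14 of them were at 0 in every library.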
